A study of Mus musculus with 18 samples.

Results

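The genes described here encode 6 enzymes that take methyl groups off lysine 9 of histone H3 (H3K9). They are Kdm1a, Kdm3a, Kdm3b, Kdm4a, Kdm4b and Kdm4c, picked by gene symbol out of a table of 12960 detected genes, where each had 1 row. All 6 passed the filter on low values, so every member is accounted for. The table holds RNA levels in mouse spleen B lineage cells from 18 libraries, 3 for each of 3 cell types in 2 genotypes. Knockout mice (KO) carried G9afl/fl together with 1 copy of a Cre allele, and control mice (Ctrl) carried 1 copy of the same Cre allele without the floxed allele. Both genotypes therefore made Cre recombinase, which acts throughout the B lineage here, and the floxed gene Ehmt2 encodes the H3K9 methyltransferase G9a.

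Activated B cells and plasma cells of both genotypes came from mice given 50 µg lipopolysaccharide (LPS, a bacterial cell wall component that stimulates B cells) in 100 µl into the tail vein and taken 72 h later. Activated B cells were sorted as B220+ GL7+ and plasma cells as CD138+ with intermediate or low B220, both after dead cells and cells with F4/80, CD11b or Thy1.2 were gated out. Naive B cells were enriched on CD43 beads from mice without LPS, so a change against naive cells joins cell type, LPS and the way of isolation. Libraries started from 1000 cells each. The labels name no ages and do not say whether libraries of 1 group stem from different mice, so p-values measure the spread between these libraries. Activated and plasma cell libraries share replicate numbers, and whether they came from the same mice is not known here.

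Methylation of H3K9 marks silent chromatin, and G9a writes its mono- and dimethylated forms. Kdm1a, also called LSD1, is an FAD-dependent amine oxidase that demethylates H3K4 and, in some complexes, H3K9, and it is known as a corepressor partner of the plasma cell factor BLIMP-1. The KDM3 and KDM4 enzymes belong to the Jumonji class, which needs iron and 2-oxoglutarate. KDM3 enzymes act on mono- and dimethylated H3K9, and KDM4 enzymes act on di- and trimethylated H3K9 and on H3K36.

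Values are RPKM (reads per kilobase of gene, relative to the reads in the library) as deposited, divided by a scaling factor per library and called scaled RPKM, with mean ± SD over n = 3 libraries. Single values are in the order of the replicate numbers, 1, 2 and 3 for naive and 1, 3 and 4 for activated and plasma cells. Changes were computed by limma on log2(scaled RPKM + 1), which understates them for low genes, with a fit that shared 1 estimate of the spread over all 18 libraries, and a change was called at an adjusted p under 0.05 over 12787 tested genes. Naive libraries varied more than the others: the median SD of a tested gene on the log2 scale was 0.388 in naive KO and 0.369 in naive Ctrl, 0.125 and 0.134 in activated KO and Ctrl, and 0.126 and 0.133 in plasma KO and Ctrl. Estimated depth ran from 1630000 to 3880000 reads in naive, from 2660000 to 10800000 in activated and from 5160000 to 6920000 in plasma cell libraries. The median of 57 odorant receptor genes, which B cells are not known to use, was 1.7 to 5.04 in naive KO and 4.3 to 7.02 in naive Ctrl, against at most 0.952 in any activated or plasma cell library. These 57 are the odorant receptor genes that passed the filter on low values, a mean of at least 1 in some group. A high level in naive cells alone was enough to pass, so the filter itself favors such a gap. Summed erythroid markers (2 of 6 in the table, Hba-a2 and Hbb-bs) reached 267 to 495 in naive KO and 284 to 374 in naive Ctrl, 14.7 to 23 in activated KO and 4.02 to 4.98 in activated Ctrl, and 0.635 to 45.4 in plasma KO and 0 to 0.764 in plasma Ctrl. The 3 platelet markers in the table (of 4) summed to 40.9 to 72.7 in naive KO and 46.8 to 105 in naive Ctrl, against at most 3.35 in any other library. The 5 monocyte or macrophage markers summed to 38.4 to 93.9 in naive KO and 49.6 to 68.5 in naive Ctrl, against at most 54.7 in other libraries. The 2 neutrophil markers in the table (of 5) summed to 9.4 to 28.8 in naive KO and 11 to 24.4 in naive Ctrl. In other libraries they summed to at most 1.96. The 4 dendritic cell markers went the other way, with at most 34 in naive libraries and up to 42 in activated KO. The part of these signals in the changes that involve naive cells was not tested. The 3 T cell markers in the table (of 7) summed to 19.4 to 28.8 in naive KO and 12.8 to 61.4 in naive Ctrl. In activated cells they summed to 10.8 to 12.8 in KO and 6.4 to 7.41 in Ctrl. Plasma cell libraries had sums of 8.17 to 12.2 in KO and 1.31 to 2.18 in Ctrl. In plasma cells the gap lay in Cd3e (7.19 to 10.2 in KO, 0 to 0.121 in Ctrl), while Cd4 stayed at or under 0.108 and Lck overlapped (0.909 to 1.98 in KO, 1.09 to 2.06 in Ctrl). The part of these T cell marker levels in the genotype changes and in the changes against naive cells was not tested. Plasma KO replicate 3 and activated Ctrl replicate 3 listed 943 and 908 genes at 0, against 40 to 382 in the other libraries. The 6 plasma cell markers set the plasma cells apart as labelled. Their sums were 7835 to 8798 in plasma KO and 8501 to 9528 in plasma Ctrl, against at most 847 in every other library. The 5 markers of activated or dividing B cells summed to 415 to 449 in activated KO and 310 to 401 in activated Ctrl. These sums were 277 to 336 in plasma KO, overlapping activated Ctrl, 268 to 297 in plasma Ctrl and at most 24.6 in naive libraries. The 5 B cell markers were at 4215 or more in every naive library. Whole-gene RNA of the targeted Ehmt2 was 17 ± 5.4 in naive KO and 19.4 ± 7.31 in naive Ctrl, 22.5 ± 0.817 in activated KO and 22.3 ± 3.15 in activated Ctrl, and 13.8 ± 1.28 in plasma KO and 17.2 ± 0.873 in plasma Ctrl, which does not check the deletion, since the remaining exons count toward it.

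The genes lie apart in the genome (GENCODE M21 on GRCm38, all protein-coding). Kdm1a (Entrez 99982) is at chr4:136550540-136602723 on the reverse strand, Kdm4a (Entrez 230674) at chr4:118136957-118180043 on the reverse strand, and Kdm4c (Entrez 76804) at chr4:74242497-74405860 on the forward strand. Kdm3a (Entrez 104263) is at chr6:71588972-71632990 on the reverse strand and Kdm4b (Entrez 193796) at chr17:56326062-56402870 on the forward strand.

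Promoter windows from 250 bases before to 50 after a transcript start were found in RefSeq (GRCm38.p6) for 4 of the 6 genes, 7 windows in all. Windows let the start regions behind the values be compared. Those shown are of Kdm1a, the member with the highest mean RNA level, and of Kdm3a and Kdm4a, members that changed between cell types. They run 5′ to 3′ along the gene, all on the reverse strand, and capitals mark the motifs found, on either strand, among the GC box GGGCGG, the box named CCAAT, the hypoxia response core in its forms ACGTG as well as GCGTG, and the core GTGAAAG of BLIMP-1 (PRDM1) sites.
Kdm1a, chr4:136602674-136602973: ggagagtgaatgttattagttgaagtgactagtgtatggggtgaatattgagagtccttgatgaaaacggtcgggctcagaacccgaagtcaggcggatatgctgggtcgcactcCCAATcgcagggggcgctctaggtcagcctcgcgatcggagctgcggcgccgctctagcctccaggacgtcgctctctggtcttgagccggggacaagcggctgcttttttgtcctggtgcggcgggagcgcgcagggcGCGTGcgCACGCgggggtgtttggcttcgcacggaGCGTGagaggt
Kdm3a, chr6:71632868-71633167: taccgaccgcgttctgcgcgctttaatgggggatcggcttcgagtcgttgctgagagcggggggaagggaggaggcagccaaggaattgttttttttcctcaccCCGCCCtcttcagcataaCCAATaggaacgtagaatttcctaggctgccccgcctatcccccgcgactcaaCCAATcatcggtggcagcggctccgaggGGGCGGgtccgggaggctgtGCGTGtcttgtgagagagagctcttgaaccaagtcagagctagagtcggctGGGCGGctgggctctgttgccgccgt
Kdm4a, chr4:118179994-118180293: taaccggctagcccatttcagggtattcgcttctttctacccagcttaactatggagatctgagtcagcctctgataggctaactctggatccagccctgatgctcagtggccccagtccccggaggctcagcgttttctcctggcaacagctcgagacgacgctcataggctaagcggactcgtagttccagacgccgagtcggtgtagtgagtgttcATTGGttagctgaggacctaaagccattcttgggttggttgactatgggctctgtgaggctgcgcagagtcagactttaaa
The Kdm1a window held 1 CCAAT and 3 GCGTG. The Kdm3a window, 1 of 3 for that gene, held 3 GGGCGG, 2 CCAAT and 1 GCGTG. The Kdm4a window held 1 CCAAT and none of the other letters searched. Over 32851 promoter windows of the same length, 35.7% held the letters GGGCGG, 37.4% held the letters CCAAT, 19.6% held the form ACGTG, 32.4% held the form GCGTG and 4.24% held the core GTGAAAG, so these matches are common letters and a description only. GC content was 61.3% in the Kdm1a window, 60.7% in the Kdm3a window and 53.3% in the Kdm4a window.

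Most of the H3K9 demethylase genes changed between cell types, and none was called between genotypes. In activated against naive cells, 3 of 6 members were called in KO (0 higher, 3 lower), beside 55.7% of all tested genes (21.2% higher, 34.5% lower). In Ctrl 4 of 6 were called (1 higher, 3 lower), beside 58.4% (19% higher, 39.4% lower). In plasma against activated cells, 2 of 6 were called in KO (1 higher, 1 lower), beside 33.1% of all tested genes (15.8% higher, 17.4% lower). In Ctrl 2 of 6 were called (0 higher, 2 lower), beside 32.8% (16.1% higher, 16.7% lower). In plasma against naive cells, 2 of 6 were called in KO (0 higher, 2 lower), beside 61.9% of all tested genes (24.7% higher, 37.1% lower). In Ctrl 5 of 6 were called (2 higher, 3 lower), beside 68.7% (24.3% higher, 44.4% lower). With the libraries of the 2 groups alone, 42.2% of all tested genes were called in KO and 51% in Ctrl for activated against naive cells, 52.7% and 50.3% for plasma against activated cells, and 50% and 62.9% for plasma against naive cells. The median change of the 6 members was -0.47 in KO and -0.22 in Ctrl for activated against naive cells, beside -0.26 and -0.29 over all tested genes. For plasma against activated cells it was 0.03 in KO and 0.06 in Ctrl, beside -0.02 and -0.03 over all tested genes. Counts of members near these shares say nothing particular about the group, and the pattern lies in which genes moved and where. The 2 steps share the activated libraries, and fewer cells of a type and less RNA per cell cannot be told apart in such bulk samples.

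**Figure D1:**
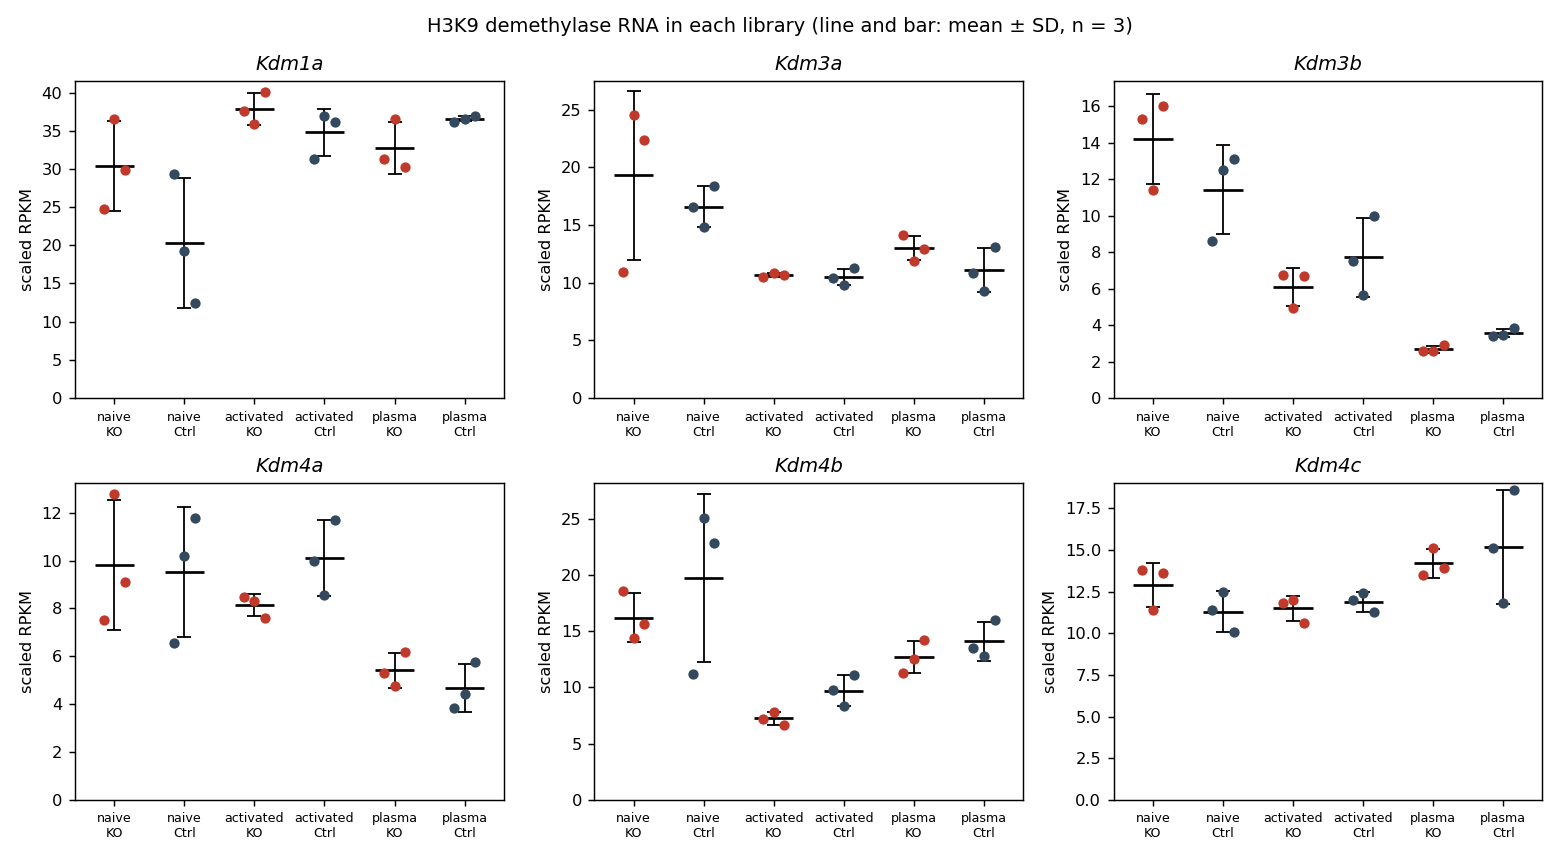
Scaled RPKM of each of the 6 genes (vertical axes, linear from 0) in naive, activated and plasma cells, KO (red) left of Ctrl (blue) in each cell type. Points are single libraries, and the line and bar are mean ± SD over n = 3. Kdm3b was lowest in plasma cells (2.57 to 2.89 in KO, 3.4 to 3.84 in Ctrl), and Kdm4b was lowest in activated cells (6.68 to 7.79 in KO, 8.31 to 11.1 in Ctrl).

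Kdm1a had the highest mean of the 6 in every group, and in Ctrl it rose in both activated and plasma cells against naive cells. In naive Ctrl its mean of 20.3 scaled RPKM was close to the 19.7 of Kdm4b. There Kdm4b was the higher of these genes in replicates 2 (25.1) and 3 (22.8). In naive cells Kdm1a had 24.7, 36.5 and 29.9 scaled RPKM in KO and 29.3, 19.3 and 12.4 in Ctrl. In activated cells it had 37.6, 35.9 and 40.1 in KO and 31.3, 36.9 and 36.2 in Ctrl. In plasma cells it had 31.3, 36.6 and 30.3 in KO and 36.2, 36.6 and 36.9 in Ctrl. All activated and plasma Ctrl libraries lay above all naive Ctrl libraries, while naive KO libraries overlapped with both later KO groups. Kdm1a rose in activated Ctrl against naive Ctrl cells (log2 change 0.82, SE 0.207, limma adjusted p = 0.00252) and in plasma Ctrl against naive Ctrl cells (0.90, adjusted p = 0.000962), and both calls held under every alternative setting and without each library. In KO the same steps gave 0.32 (adjusted p = 0.19) and 0.12 (adjusted p = 0.634), which were not called. The Ctrl rise rests on naive Ctrl libraries that spread widely, with a coefficient of variation of 41.6%. Their Kdm1a values came from an estimated 309, 398 and 249 reads, which give counting errors of 5.69%, 5.01% and 6.34%. Without naive Ctrl replicate 1 the activated Ctrl change was 1.11, and without naive Ctrl replicate 3 it was 0.53.

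Kdm3a, a demethylase known from work on sperm chromatin, metabolism and hypoxia, was higher in naive cells than in activated cells of both genotypes. In naive cells it had 10.9, 24.5 and 22.4 scaled RPKM in KO and 16.6, 14.8 and 18.4 in Ctrl. Activated cells held 10.5, 10.8 and 10.7 in KO and 10.4, 9.84 and 11.3 in Ctrl. Plasma cells held 14.1, 11.9 and 12.9 in KO and 10.8, 9.29 and 13.1 in Ctrl. Every activated library lay below every naive library of its genotype, although naive KO replicate 1, at 10.9, was close to the activated KO level. Kdm3a fell in activated KO against naive KO cells (-0.72, SE 0.22, limma adjusted p = 0.0104) and in activated Ctrl against naive Ctrl cells (-0.61, SE 0.22, adjusted p = 0.0244). The KO call was lost with the libraries of the 2 groups alone (adjusted p = 0.076) and without naive KO replicate 2 (0.0613). The Ctrl call was lost without activated Ctrl replicate 1 (0.0571), activated Ctrl replicate 3 (0.0745) or naive Ctrl replicate 3 (0.072). Plasma cells were not called against activated cells in KO (0.26, adjusted p = 0.456) or Ctrl (0.05, adjusted p = 0.939). With the libraries of the groups alone the KO value passed (adjusted p = 0.0424), where all plasma KO libraries lay above all activated KO libraries. Against naive cells, plasma KO gave -0.46 (adjusted p = 0.0754), or -0.81 (adjusted p = 0.000374) without naive KO replicate 1. Plasma Ctrl fell against naive Ctrl (-0.55, adjusted p = 0.0328), a call lost without plasma Ctrl replicate 1 (0.0738), plasma Ctrl replicate 3 (0.125), naive Ctrl replicate 1 (0.0593) or naive Ctrl replicate 3 (0.0925), and under quantile normalization (0.0741) or library weights (0.0587).

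Kdm3b, the close relative of Kdm3a, was the member that changed most, falling from stage to stage in KO and most steeply into plasma cells in Ctrl. The gene (Entrez 277250), at chr18:34777047-34838660 on the forward strand in GENCODE M21 on GRCm38, shares 3468 exon bases with Gm26538, a long noncoding RNA gene on the opposite strand. No source used here states whether counting used strand, so reads of that pair cannot be told apart. In naive cells it had 15.3, 11.4 and 16 scaled RPKM in KO and 8.61, 12.5 and 13.1 in Ctrl. Activated cells had 6.72, 4.91 and 6.69 in KO and 7.53, 5.66 and 9.97 in Ctrl. Plasma cells had 2.58, 2.57 and 2.89 in KO and 3.4, 3.47 and 3.84 in Ctrl. The 3 cell types did not overlap in KO, and plasma Ctrl libraries lay below all other Ctrl libraries, while activated and naive Ctrl libraries overlapped. Kdm3b fell in plasma KO against naive KO cells (log2 change -2.04, SE 0.217, limma adjusted p = 2.32e-07) and in plasma Ctrl against naive Ctrl cells (-1.42, SE 0.217, adjusted p = 1.86e-05). It fell in plasma KO against activated KO (-0.94, adjusted p = 0.00209) and in plasma Ctrl against activated Ctrl (-0.90, adjusted p = 0.00291). These 4 calls, and that of activated KO against naive KO (-1.10, adjusted p = 0.000406), held under every alternative setting and without each library. Activated Ctrl against naive Ctrl cells gave -0.52 (adjusted p = 0.0492), a call lost in 13 of 18 fits without 1 library, with an adjusted p of up to 0.244 and a change of -0.34 without activated Ctrl replicate 3. It was also lost as deposited without scaling (0.0757), under quantile normalization (0.165), with a pseudocount of 0.1 (0.0566), with the libraries of the 2 groups alone (0.134) and with library weights (0.132).

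Kdm4a, which also demethylates H3K36 and is known for amplifying DNA replication at some loci when overproduced, was lower in plasma cells than in both earlier cell types and was not called between activated and naive cells. It had 7.52, 12.8 and 9.1 scaled RPKM in naive KO and 6.54, 10.2 and 11.8 in naive Ctrl libraries. It had 8.49, 8.31 and 7.6 in activated KO and 10.0, 8.55 and 11.7 in activated Ctrl libraries. It had 5.3, 4.75 and 6.17 in plasma KO and 3.83, 4.41 and 5.76 in plasma Ctrl libraries. All plasma libraries lay below all activated and naive libraries of their genotype, while activated and naive libraries overlapped. Kdm4a fell in plasma Ctrl against activated Ctrl cells (log2 change -0.97, SE 0.227, limma adjusted p = 0.00224) under every alternative and without each library. In plasma KO against activated KO cells the change was -0.52 (SE 0.227) and was not called (adjusted p = 0.0939), but it passed with the libraries of the 2 groups alone (0.00427), without the 6 naive libraries (0.00689), as deposited without scaling (0.0295), with library weights (0.000435) and with the replicate block (0.0357). Against naive cells, Kdm4a fell in plasma KO (-0.73, adjusted p = 0.00983) and in plasma Ctrl (-0.87, adjusted p = 0.00245). Quantile normalization ended both calls (adjusted p = 0.0503 in KO and 0.0545 in Ctrl), and library weights (0.059) and the fit without naive KO replicate 2 (0.0544) ended the KO call. Activated against naive cells gave -0.22 in KO (adjusted p = 0.43) and 0.10 in Ctrl (adjusted p = 0.714), the Ctrl value turning to -0.12 without naive Ctrl replicate 1.

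Kdm4b, a KDM4 enzyme known as a hypoxia-responsive and hormone receptor-linked gene in human cancer cells, was lowest in activated cells. In naive cells it had 18.6, 14.4 and 15.6 scaled RPKM in KO and 11.2, 25.1 and 22.8 in Ctrl. Activated cells had 7.2, 7.79 and 6.68 in KO and 9.73, 8.31 and 11.1 in Ctrl. Plasma cells had 11.3, 12.5 and 14.2 in KO and 13.5, 12.8 and 16 in Ctrl. Activated libraries lay below all naive and all plasma libraries of their genotype, although naive Ctrl replicate 1, at 11.2, only just exceeded the highest activated Ctrl library. Kdm4b fell in activated KO against naive KO cells (-1.06, SE 0.226, limma adjusted p = 0.000776) and in activated Ctrl against naive Ctrl cells (-0.88, SE 0.226, adjusted p = 0.00289), and both calls held under every alternative and without each library. It rose in plasma KO against activated KO cells (0.73, SE 0.226, adjusted p = 0.0167), a call lost as deposited without scaling (0.0565) and without activated KO replicate 4 (0.0595) or plasma KO replicate 4 (0.0717). Plasma Ctrl against activated Ctrl gave 0.50 and was not called (adjusted p = 0.108), but passed with the libraries of the 2 groups alone (0.00702), with library weights (0.000863), without the 6 naive libraries (0.00299) and without naive Ctrl replicate 1 (0.0153). Plasma against naive cells gave -0.33 in KO (adjusted p = 0.216) and -0.38 in Ctrl (adjusted p = 0.14), which became -0.73 (adjusted p = 0.00125) without naive Ctrl replicate 1 and passed as deposited without scaling (-0.54, adjusted p = 0.0435).

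Kdm4c, a further KDM4 enzyme with the same substrates, varied least. In naive cells it had 13.8, 11.4 and 13.6 scaled RPKM in KO and 11.4, 12.5 and 10.1 in Ctrl. Activated cells had 11.8, 12 and 10.6 in KO and 12, 12.4 and 11.3 in Ctrl. Plasma cells had 13.5, 15.1 and 13.9 in KO and 15.1, 11.8 and 18.6 in Ctrl. Plasma KO libraries lay above all activated KO libraries, and the other neighbouring groups overlapped. The highest change was 0.37 in plasma Ctrl against naive Ctrl cells (limma adjusted p = 0.0488), a call lost in 13 of 18 fits without 1 library, with an adjusted p of 0.267 and a change of 0.22 without plasma Ctrl replicate 4. That call was also lost as deposited without scaling (0.246), with the libraries of the 2 groups alone (0.162), with library weights (0.155) and with the replicate block (0.0607). Plasma against activated cells gave 0.28 in KO (adjusted p = 0.215, or 0.0271 with the libraries of the 2 groups alone) and 0.31 in Ctrl (adjusted p = 0.179, or 0.0472 without plasma Ctrl replicate 3).

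**Figure D2:**
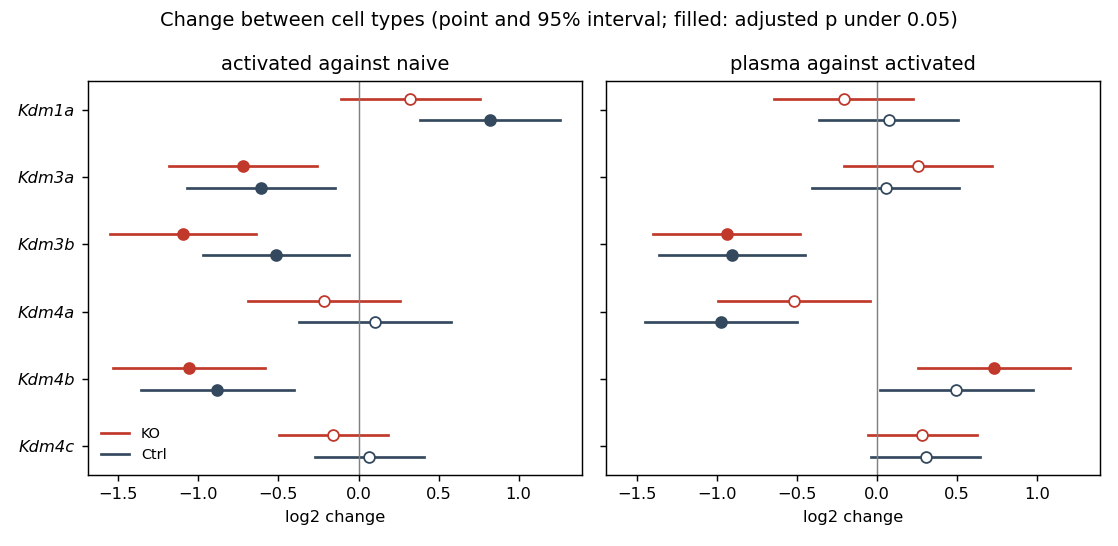
log2 change on the log2(scaled RPKM + 1) scale (horizontal axes) of each gene in activated against naive cells and in plasma against activated cells, KO (red) above Ctrl (blue). Points are limma estimates with 95% intervals, filled where the adjusted p was under 0.05. Kdm3b was negative in all 4 contrasts, and Kdm4b was negative in activated against naive cells (-1.06 in KO, -0.88 in Ctrl) and positive in plasma against activated cells (0.73 in KO, 0.50 in Ctrl).

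Between genotypes, none of the 6 members was called in any cell type. In activated KO against activated Ctrl cells 0 of 6 were called, beside 1.78% of all tested genes. In plasma KO against plasma Ctrl cells 0 of 6 were called, beside 0.61%, and in naive KO against naive Ctrl cells 0 of 6, beside 7.23%. At an unadjusted p under 0.05 the members numbered 0, 0 and 1, and the tested genes 1288, 750 and 3072. With the libraries of the 2 groups alone, limma again called 0 of 6 members in each cell type, beside 11.3% of tested genes in activated, 5.11% in plasma and 0% in naive cells.

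The member nearest to a call was Kdm1a in naive cells. It averaged 30.4 ± 5.91 scaled RPKM in naive KO and 20.3 ± 8.45 in naive Ctrl, with overlapping libraries. The change was 0.62 (SE 0.207, 95% interval 0.19 to 1.05), with an unadjusted p of 0.00779 and a limma adjusted p of 0.0733. It passed without naive Ctrl replicate 1 (0.91, adjusted p = 0.00531) and without naive KO replicate 1 (0.75, adjusted p = 0.0476). With the 6 naive libraries alone the SE was 0.307 and the limma adjusted p was 0.727. In activated cells Kdm1a averaged 37.9 ± 2.09 in KO and 34.8 ± 3.07 in Ctrl (0.12, 95% interval -0.31 to 0.56), and in plasma cells 32.7 ± 3.4 in KO and 36.6 ± 0.307 in Ctrl (-0.16, 95% interval -0.59 to 0.28).

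In activated cells, Kdm4a and Kdm4b were lower in each KO library than in each Ctrl library. Such a separation in the lower direction was found for 2 of 6 members and for 16% of all tested genes (31.3% in either direction). Kdm4b averaged 7.23 ± 0.554 in activated KO and 9.71 ± 1.39 in activated Ctrl (-0.38, 95% interval -0.85 to 0.10, limma adjusted p = 0.714). With the 6 activated libraries alone its adjusted p was 0.0835, and library weights gave -0.41 with an adjusted p of 0.00946, the single alternative that called a member between genotypes with all libraries in the fit. Kdm4a averaged 8.14 ± 0.471 in activated KO and 10.1 ± 1.6 in activated Ctrl (-0.27, 95% interval -0.75 to 0.20, adjusted p = 0.933). Marker sums split the same libraries: the 6 plasma cell markers summed to 337 to 436 in activated KO and 754 to 847 in activated Ctrl, and the 5 B cell markers to 2283 to 2455 in activated KO and 3119 to 3548 in activated Ctrl. Among them Xbp1, a plasma cell transcription factor, averaged 210 ± 35.6 in activated KO and 406 ± 9.34 in activated Ctrl, and Jchain, the joining chain of secreted IgM, 127 ± 8.52 in activated KO and 328 ± 48.3 in activated Ctrl. The part of these differences in the values of Kdm4a and Kdm4b was not tested.

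In plasma cells, Kdm3b was lower in each KO library than in each Ctrl library, a separation seen for 1 of 6 members and 13.6% of all tested genes (24.8% in either direction). The B cell markers, at 976 to 1122 in plasma KO and 1336 to 1681 in plasma Ctrl, split the same libraries, and their part was not tested. It averaged 2.68 ± 0.186 in plasma KO and 3.57 ± 0.238 in plasma Ctrl (-0.31, 95% interval -0.77 to 0.14, limma adjusted p = 1, or 0.234 with the 6 plasma cell libraries alone). In naive cells no member was separated, beside 12.2% of all tested genes in either direction. The remaining genotype changes ran from -0.28 (Kdm3b in activated cells) to 0.30 (Kdm3b in naive cells), with adjusted p-values of 0.416 or more. Their 95% intervals, from the shared spread, reach from -0.73 to 0.76, so differences within those bounds remain possible. In naive cells, whose libraries varied more, that spread makes the intervals too narrow. There Kdm3b had an SE of 0.217, and of 0.323 with the 6 naive libraries alone. In activated and plasma cells, whose libraries varied less, the shared spread gave every member a larger SE than the libraries of that cell type alone. Kdm1a had 0.207 in both, against 0.089 in activated and 0.083 in plasma cells alone. Kdm3b had 0.217 in both, against 0.186 and 0.133.

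The genotype effect was also compared between cell types. For activated against naive cells 0 of 6 members differed, beside 2.62% of all tested genes, for plasma against activated cells 0 of 6, beside 0.156%, and for plasma against naive cells 0 of 6, beside 1.38%. The largest difference among members was that of Kdm1a in plasma against naive cells (-0.78, unadjusted p = 0.0159, limma adjusted p = 0.193), and without naive Ctrl replicate 1 this difference was -1.07 with an adjusted p of 0.0242. Kdm3b gave -0.58 for activated against naive cells (adjusted p = 0.35) and -0.61 for plasma against naive cells (adjusted p = 0.336). Kdm4a gave 0.46 for plasma against activated cells (adjusted p = 1).

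**Figure D3:**
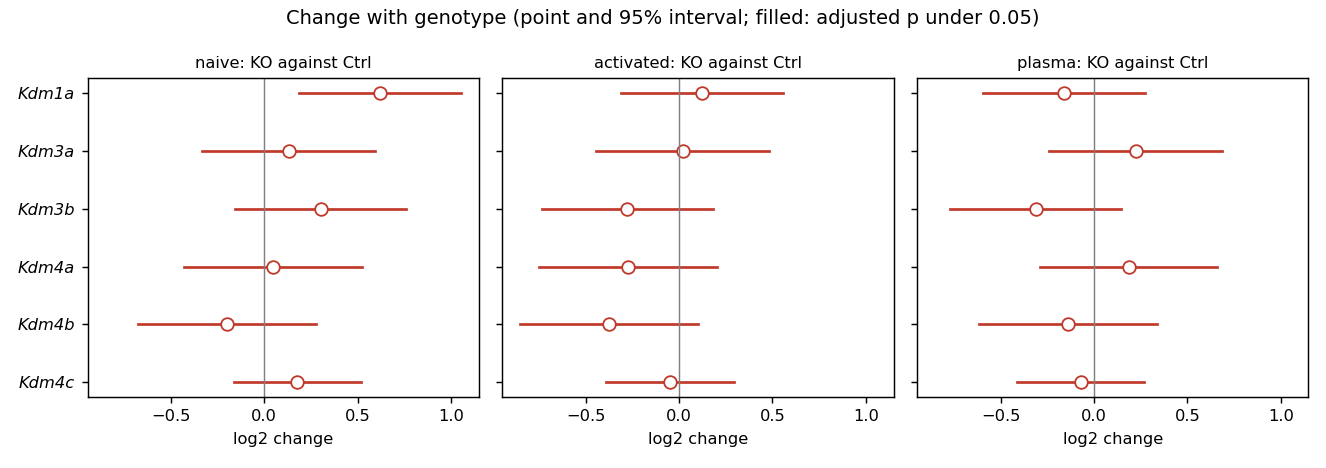
log2 change on the log2(scaled RPKM + 1) scale of each gene in KO against Ctrl (horizontal axes), in naive, activated and plasma cells. Points are limma estimates with 95% intervals, and all are open because no adjusted p was under 0.05. The interval of Kdm1a in naive cells (0.19 to 1.05) is the only interval here that leaves out 0.

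The order of the levels shows how the mixture of these enzymes' RNA differed between stages. Kdm1a had the highest mean in all 6 groups, and its libraries lay above those of the next member everywhere except in naive Ctrl, where they overlapped with Kdm4b. In naive cells Kdm3a and Kdm4b came next (19.3 and 16.2 scaled RPKM in KO, 16.6 and 19.7 in Ctrl), followed by Kdm3b, Kdm4c and Kdm4a, with neighbours overlapping except Kdm3a and Kdm3b in Ctrl. In activated cells the order after Kdm1a was Kdm4c, Kdm3a, Kdm4a, Kdm4b and Kdm3b in both genotypes, and neighbours overlapped except Kdm3a and Kdm4a in KO. In plasma cells Kdm4c, Kdm3a and Kdm4b overlapped (14.2, 13 and 12.7 in KO, 15.2, 11.1 and 14.1 in Ctrl) and lay above Kdm4a, and Kdm3b was lowest. Kdm4a and Kdm3b did not overlap in plasma KO but did in plasma Ctrl.

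The summed RNA of the 6 genes was 103 ± 10.7 scaled RPKM in naive KO and 88.9 ± 5.35 in naive Ctrl, 81.4 ± 1.5 in activated KO and 84.7 ± 5.87 in activated Ctrl, and 80.7 ± 2.76 in plasma KO and 85.1 ± 8.2 in plasma Ctrl. The mean sum was highest in naive KO cells, and the parts it was made of differed between cell types. The share of Kdm1a was 29.4% in naive KO and 23.1% in naive Ctrl, 46.5% and 41.1% in activated KO and Ctrl, and 40.5% and 43.2% in plasma KO and Ctrl. The share of Kdm3b was 14% and 12.8% in naive KO and Ctrl, 7.48% and 9.04% in activated KO and Ctrl, and 3.32% and 4.2% in plasma KO and Ctrl. Kdm4c made up 12.8% of the sum in naive cells of each genotype, 14.1% in activated cells of each genotype, and 17.6% in plasma KO and 17.7% in plasma Ctrl. These shares describe RNA per length, not enzyme, and carry no test.

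**Figure D4:**
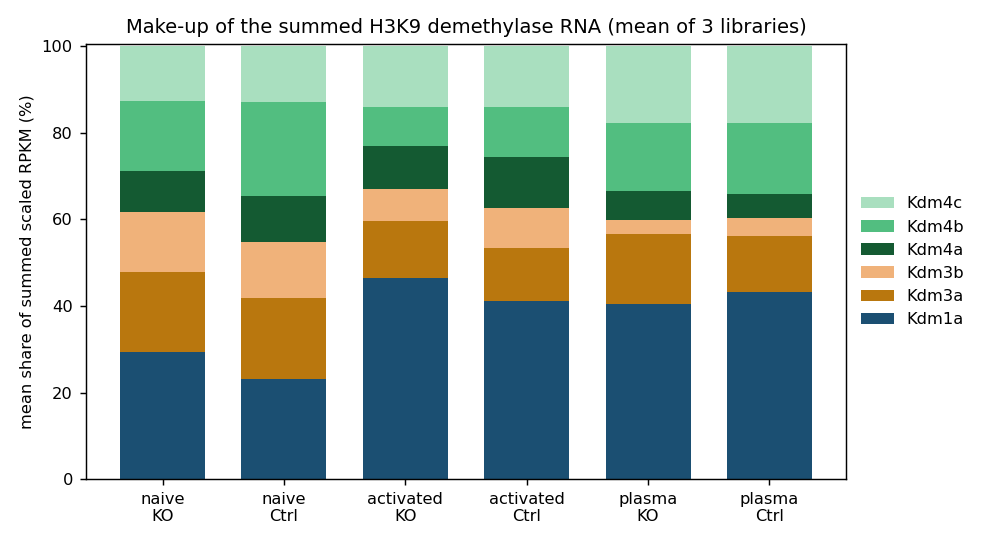
Mean share (%) of each gene in the summed scaled RPKM of the 6 genes (vertical axis, from 0 to 100) in naive, activated and plasma cells, KO left of Ctrl, each bar the mean of 3 libraries. The Kdm3b band narrows from 14% and 12.8% in naive KO and Ctrl to 3.32% and 4.2% in plasma KO and Ctrl.

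Across all 18 libraries, which share cell type and genotype and so are no test, Kdm3b and Kdm4a varied most alike of the 15 pairs (Pearson r = 0.779), and Kdm1a and Kdm4b most oppositely (r = -0.73). The genes with the pattern most like Kdm3b were Slc15a4, Acp5 and Rabep2 (r = 0.969 each). Those most like Kdm1a were Pcgf5 (0.924), Cpt2 (0.898) and Ube2q2 (0.896), and those most like Kdm3a were Lef1 (0.922), AI593442 (0.921) and Disp2 (0.91). For Kdm4a they were Nfam1 (0.922), Map7 (0.917) and Nxpe3 (0.908), and for Kdm4b Tbc1d8b (0.94), H2-Ke6 (0.908) and Chkb (0.902). Kdm4c had the weakest matches, Mbtps1 (0.812), Vars (0.804) and Skiv2l (0.793).

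The wider H3K9 and demethylase machinery is given from lists of related genes, with counts over limma calls. These counts stand beside 19% of all tested genes called higher and 39.4% lower in activated Ctrl against naive Ctrl cells (median change -0.29), and 16.1% higher and 16.7% lower in plasma Ctrl against activated Ctrl cells (median -0.03). Between genotypes 1.78% of tested genes were called in activated, 0.61% in plasma and 7.23% in naive cells. Of 7 tested other enzymes known or proposed to demethylate H3K9, 0 were called between genotypes in any cell type, and 2 fell in activated Ctrl against naive Ctrl cells (median change -0.29 over the list and -0.29 over all tested genes). Kdm7a, a Jumonji enzyme with a PHD finger, fell to 8.35 ± 1.55 scaled RPKM in activated Ctrl, against 17.9 ± 4.45 in naive Ctrl (-0.997, adjusted p = 0.000415). Jmjd1c, the relative of Kdm3a and Kdm3b, averaged 8 ± 0.337 in activated Ctrl and 12.3 ± 4.81 in naive Ctrl (-0.50, adjusted p = 0.0482), a call lost in 14 of 18 fits without 1 library, with -0.25 (adjusted p = 0.268) without naive Ctrl replicate 3. In plasma Ctrl against activated Ctrl cells 0 of these 7 were called (list median -0.17, beside -0.03).

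Of 14 tested LSD1 corepressor partners, 0 were called between genotypes, 3 rose and 9 fell in activated Ctrl against naive Ctrl cells, and 2 rose and 5 fell in plasma Ctrl against activated Ctrl cells. The list medians were -0.61, beside -0.29 over all tested genes, and -0.19, beside -0.03. Hdac1, a deacetylase among these partners, averaged 148 ± 7.58 in activated Ctrl and 85.6 ± 9.35 in naive Ctrl (0.79, limma adjusted p = 1.25e-05). It fell to 52.5 ± 2.06 in plasma Ctrl, against 148 ± 7.58 in activated Ctrl (-1.48, limma adjusted p = 2.62e-09). Hdac2, another deacetylase in the list, averaged 29.6 ± 3.85 in activated Ctrl and 27.3 ± 4.07 in plasma Ctrl. Prdm1, which encodes BLIMP-1, rose to 31.5 ± 5.43 in activated Ctrl, against 1.57 ± 1.39 in naive Ctrl (3.77, adjusted p = 1.36e-08), and to 103 ± 5.29 in plasma Ctrl (1.69 over activated Ctrl, adjusted p = 0.000146). Bcl6, the germinal center repressor, fell to 2.43 ± 0.845 in activated Ctrl, against 30.2 ± 2.19 in naive Ctrl (-3.22, adjusted p = 5.28e-08). Gfi1, a zinc finger repressor that recruits LSD1, rose to 7.91 ± 0.632 in plasma Ctrl, against 0.898 ± 0.352 in activated Ctrl (2.25, adjusted p = 5.35e-06).

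Of 10 tested demethylases of other histone lysines, 0 were called between genotypes, 5 fell in activated Ctrl against naive Ctrl cells (list median -0.49, beside -0.29 over all tested genes), and 3 rose and 1 fell in plasma Ctrl against activated Ctrl cells (list median 0.27, beside -0.03). The H3K4 demethylase Kdm5b fell to 3.58 ± 0.66 in activated Ctrl, against 11.7 ± 2.21 in naive Ctrl (-1.46, adjusted p = 2.51e-05). The H3K27 demethylase Kdm6b averaged 0.498 ± 0.166 in activated Ctrl and 4.03 ± 1.83 in naive Ctrl (-1.68, adjusted p = 0.000217), a call lost under quantile normalization (0.0743), and Rsbn1 gave -0.82 (adjusted p = 0.00237), also lost there (0.201). Kdm2b fell to 3.44 ± 0.25 in plasma Ctrl, against 6.73 ± 0.218 in activated Ctrl (-0.80, adjusted p = 0.00283). Kdm6a (0.69, adjusted p = 0.0126) and Kdm5c (0.61, adjusted p = 0.00885) rose in the same contrast, and both calls were lost as deposited without scaling (0.0658 and 0.0727) and without plasma Ctrl replicate 4 (0.0518 and 0.0589). Kdm5c was also lost without activated Ctrl replicate 3 (0.0619).

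Of the 6 H3K9 methyltransferases, the enzymes that write the mark, 0 were called between genotypes, 3 rose in activated Ctrl against naive Ctrl cells (list median 0.33, beside -0.29 over all tested genes) and 2 fell in plasma Ctrl against activated Ctrl cells (list median -0.30, beside -0.03). Suv39h1, which trimethylates H3K9, rose to 34.8 ± 3.32 in activated Ctrl, against 7.6 ± 1.15 in naive Ctrl (2.06, adjusted p = 9.76e-09). In plasma Ctrl it averaged 25.4 ± 2.43 (-0.44 against activated Ctrl, adjusted p = 0.0372), a call lost in 6 of 18 fits without 1 library, with adjusted p of up to 0.15 without plasma Ctrl replicate 3. Ehmt1, the partner of G9a, averaged 8.2 ± 2.3 in plasma Ctrl and 13.6 ± 0.935 in activated Ctrl (-0.70, adjusted p = 0.0344), lost under quantile normalization (0.111) and without any of the 3 activated Ctrl libraries or plasma Ctrl replicate 3 (up to 0.202). Suv39h2 (0.83, adjusted p = 0.0246) and Setdb1 (0.42, adjusted p = 0.0341) were called in activated Ctrl against naive Ctrl cells. Both calls were lost with the libraries of the 2 groups alone (0.0651 and 0.16) and in 4 of 18 fits without 1 library each, up to 0.132 for Suv39h2 without naive Ctrl replicate 1 and 0.202 for Setdb1 without naive Ctrl replicate 2.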

How the data were processed

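The deposited table gave RPKM values that the authors computed for detected genes, 1 column per library. Per the submitters' processing notes, STAR and mm10 were used. Versions, gene models, counter, strand and detection rule were stated in no source used here. RPKM values were divided by median-of-ratios factors (0.903 to 1.07, over 8012 genes above 1 RPKM in all libraries). Genes with a mean of at least 1 in some group were kept (12787, with 173 left out), and log2(scaled RPKM + 1) was fitted in limma 3.58.1 under R 4.3.3 (lmFit, eBayes with trend, group means, two-sided, Benjamini-Hochberg, 12 contrasts), tested on simulated data. Depth was estimated from RPKM steps and GENCODE M21 exon lengths. Only 34% to 45.1% of scored values came within 0.1 of whole reads, so counts were not recovered and the estimates are approximate and cover counting error only.

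Members and lists were chosen with earlier results of these data known. All members were named. In genotype contrasts and Ctrl steps between neighbouring cell types, up to 3 called genes per list with the smallest adjusted p were named, and 3 most alike genes per member. Hdac2 was named in addition, beside Hdac1. Python 3.11.15, pandas 2.3.3 and matplotlib 3.10.9 made tables and figures. Alternatives changed scaling, pseudocount, filter, libraries, weights and replicate block. Leaving out the 6 naive libraries was added after seeing the data. Some items are not reported here.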

Additional observations from a re-analysis of the deposited data

How the results depend on the processing

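Of 72 member changes tested in 12 contrasts, 18 were called, and 10 of these stayed called in every alternative run and without each of the 18 libraries. No called change turned its direction. The number of members called moved by over 1.5 times as follows. With library weights it was 1 in activated KO against activated Ctrl (0 in the main test), 4 in plasma Ctrl against activated Ctrl (2), 3 in plasma Ctrl against naive Ctrl (5), 6 in plasma KO against activated KO (2) and 1 in plasma KO against naive KO (2). Quantile normalization gave 3 in plasma Ctrl against naive Ctrl and 1 in plasma KO against naive KO. The libraries of the groups alone gave 5 in plasma KO against activated KO. Smaller moves were 3 in activated Ctrl against naive Ctrl (4) as deposited, quantile normalized, with a pseudocount of 0.1, with the libraries of the groups alone and with library weights, 2 in activated KO against naive KO (3) and 4 in plasma Ctrl against naive Ctrl (5) with the libraries of the groups alone, 3 in plasma Ctrl against activated Ctrl (2) with the libraries of the groups alone or without the naive libraries, 3 in plasma KO against activated KO (2) without the naive libraries, 3 in plasma KO against naive KO (2) as deposited, and those with the replicate block. Without 1 library each, the count ran from 0 to 1 in naive KO against naive Ctrl, 2 to 4 in activated Ctrl against naive Ctrl, 3 to 5 in plasma Ctrl against naive Ctrl, 1 to 2 in plasma KO against activated KO, 1 to 3 in plasma KO against naive KO, and 0 to 1 for the KO effect in plasma minus naive cells. The causes were not tested. Uncalled changes that turned sign were Kdm4a in naive KO against naive Ctrl with library weights (-0.025), Kdm1a and Kdm3a in plasma Ctrl against activated Ctrl as deposited (-0.138 and -0.145), Kdm1a in plasma KO against naive KO as deposited (-0.007) and quantile normalized (-0.011), Kdm3b and Kdm4c in the KO effect of plasma minus activated cells as deposited (0.01 and 0.028), and Kdm4a in that of plasma minus naive cells quantile normalized (-0.019).

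Without 1 library each, uncalled changes with both signs ran as follows. In activated KO against activated Ctrl they were -0.023 to 0.067 for Kdm3a and -0.085 to 0.001 for Kdm4c, and in plasma KO against plasma Ctrl -0.229 to 0.081 for Kdm4c. In naive KO against naive Ctrl they were -0.07 to 0.478 for Kdm3a, -0.178 to 0.206 for Kdm4a and -0.543 to 0.007 for Kdm4b. In activated Ctrl against naive Ctrl they were -0.119 to 0.265 for Kdm4a and -0.008 to 0.136 for Kdm4c. Kdm3a gave -0.066 to 0.162 in plasma Ctrl against activated Ctrl, and Kdm1a -0.018 to 0.255 in plasma KO against naive KO. For the KO effect, activated minus naive, they were -0.458 to 0.09 for Kdm3a and -0.382 to 0.168 for Kdm4b. For plasma minus activated they were -0.216 to 0.144 for Kdm3b and -0.18 to 0.129 for Kdm4c, and for plasma minus naive -0.255 to 0.293 for Kdm3a, -0.021 to 0.362 for Kdm4a and -0.147 to 0.403 for Kdm4b.

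Same-numbered libraries did not deviate together in every pair. For KO and Ctrl, r ran from -0.212 to 0.07 in activated, 0.068 to 0.312 in plasma and -0.189 to -0.001 in naive cells. For plasma and activated cells it ran from -0.192 to 0.055 in KO and from -0.008 to 0.154 in Ctrl. Such correlations, from groups of 3 libraries, cannot show whether same-numbered libraries are pairs. Whether activated and plasma cells of 1 number and genotype came from the same mice is not known here. The main fit treats plasma and activated libraries as unpaired. The replicate block gave each number 1 effect shared by KO and Ctrl, so a pairing within each genotype was not fitted. The replicate block lost 1 call (Kdm4c, plasma Ctrl against naive Ctrl, 0.373) and gained 1 (Kdm4a, plasma KO against activated KO, -0.516), giving 4 and 3 members called, and it kept 0 members between genotypes. Over all genes, calls between KO and Ctrl were 228 in activated, 78 in plasma and 924 in naive cells, against 1442, 653 and 0 with the libraries of the groups alone, 2446, 1641 and 0 with library weights, and 1850 and 788 without the naive libraries. Naive calls were 436 with a pseudocount of 0.1 and 472 with a filter at 5 RPKM. Quantile normalization moved the median change of all genes by 0.235 and 0.312 in activated and plasma Ctrl against naive Ctrl and by 0.178 and 0.208 in KO. The higher share of calls became 48.6%, 50%, 49.3% and 50%, where the main test gave 32.5%, 35.3%, 38.1% and 40%. As deposited, the median of plasma Ctrl moved by -0.112 against activated Ctrl and -0.136 against naive Ctrl. Members had an estimated 77 to 2382 reads per library.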

Other observations

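Kdm3a and Kdm4b are known as hypoxia-responsive genes in human and mouse cells, and the Jumonji enzymes use 2-oxoglutarate, so lists of other HIF-1 targets and of enzymes that supply 2-oxoglutarate and FAD were read in the same libraries. Of 18 tested HIF-1 targets, 1 rose in activated KO against activated Ctrl cells and 0 were called in plasma or naive cells. Ldha, lactate dehydrogenase A, averaged 983 ± 292 scaled RPKM in activated KO and 613 ± 60.4 in activated Ctrl (log2 change 0.65, limma adjusted p = 0.0329), a call lost in 5 of 18 fits without 1 library: activated Ctrl replicate 1 (0.0873), 3 (0.0733) or 4 (0.226), and activated KO replicate 1 (0.0526) or 3 (0.172). In activated Ctrl against naive Ctrl cells 6 rose and 6 fell (list median 0.06), beside 19% higher and 39.4% lower over all tested genes (median -0.29). The glycolytic genes Pgk1 and Ldha rose to 139 ± 16.6 and 613 ± 60.4 in activated Ctrl, against 39.9 ± 9.65 and 173 ± 25.1 in naive Ctrl, and the mitophagy receptor gene Bnip3l fell to 19.2 ± 3.18, against 41.8 ± 5.53 (limma adjusted p = 2.51e-08, 2.79e-08 and 1.3e-05). In plasma Ctrl against activated Ctrl cells 5 rose and 4 fell (list median -0.05), beside 16.1% higher and 16.7% lower over all tested genes (median -0.03). Vegfa, a growth factor for blood vessels, rose to 15 ± 6.59, against 1.8 ± 0.295 in activated Ctrl, while Bhlhe40 fell to 0.731 ± 0.468, against 39.1 ± 7.61, and Ankrd37 to 2.31 ± 0.901, against 32.8 ± 2.27 (adjusted p = 8.84e-07, 1.54e-11 and 6.21e-07).

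Of 13 tested cofactor genes, 7 rose and 3 fell in activated Ctrl against naive Ctrl cells (list median 0.32), and 2 rose and 4 fell in plasma Ctrl against activated Ctrl cells (list median -0.19), beside the same shares and medians over all tested genes. Idh3a, a subunit of the NAD-dependent isocitrate dehydrogenase that makes 2-oxoglutarate, averaged 100.7 ± 0.433 in activated KO and 72.6 ± 9.51 in activated Ctrl (0.47, limma adjusted p = 0.0368), a call lost in 10 of 18 fits without 1 library, up to 0.29 without activated Ctrl replicate 4, and under quantile normalization (0.0696). It rose to 72.6 ± 9.51 in activated Ctrl, against 26.7 ± 1.64 in naive Ctrl (1.41, adjusted p = 2.05e-08), and fell to 43.3 ± 1.88 in plasma Ctrl (-0.72 against activated Ctrl, adjusted p = 4.66e-05). The aspartate aminotransferase genes Got2 (1.78, adjusted p = 9.19e-08) and Got1 (1.47, adjusted p = 1.91e-06) rose in activated Ctrl against naive Ctrl cells. In plasma Ctrl against activated Ctrl cells, Idh2 rose (1.19, adjusted p = 1.29e-05) and Idh3b fell (-0.47, adjusted p = 0.00185).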
